A study of Mus musculus with 48 samples.

Results

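Open chromatin was compared between progenitor clones whose libraries carry the naming code CRb3 and those that carry CRb1. The members are the progenitor peak lists with either code in their names, which gave 4 CRb3 lists (clones 17 to 20) and 18 CRb1 lists (clones 1 to 13, 15, 16, 22, 23 and 24). They make up 22 of the 24 progenitor lists and 22 of the 48 lists of the series. The 2 progenitor lists of code CRb2 were left out. What the code stands for is not given in the sources used here, so the comparison asks how lists of one code differ from lists of the other, and no treatment or genotype is attached to either.

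All 22 libraries come from mouse bone marrow ER-Hoxb8 cells of the GMP stage, the granulocyte-macrophage progenitor. Cells of both codes were grown in RPMI with fetal bovine serum, antibiotics and SCF, and were assayed by ATAC-seq as undifferentiated progenitors. Each clone gave 1 progenitor library, so a p-value measures the spread between clones together with the technical spread between libraries. The sources used here do not give the mouse strain, age or sex. Every CRb3 clone has a number between those of CRb1 clones 16 and 22, so the code and this stretch of clone numbers cannot be told apart.

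ER-Hoxb8 cells carry a Hoxb8 protein fused to an oestrogen receptor domain, which blocks differentiation and keeps myeloid progenitors dividing while oestrogen is supplied. SCF is the ligand of the receptor Kit, which early progenitors need to survive. In ATAC-seq, a transposase inserts adapters where DNA is free of nucleosomes, so peaks mark accessible promoters and enhancers, and enhancers are the elements that differ most between closely related myeloid cells. Regions are given by their mm9 position without gene names, because no mm9 annotation was used here, and the labelled cell type was therefore not checked against marker genes.

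The CRb3 lists were the deeper ones. Their relative depth, read from the step between the values of the first score and set to 1 for the median list, was 2.43 in clone 17, 1.52 in clone 18, 1.66 in clone 19 and 1.11 in clone 20. Among the 18 CRb1 lists it ran from 0.800 through a median of 0.976 to 1.68. The groups overlapped, with CRb1 clones 24, 10 and 7 at 1.68, 1.13 and 1.12. The ratio of the geometric means was 1.62 in favour of CRb3 (two-sided exact permutation test over 7315 assignments of 4 of 22 lists, p = 0.00191, adjusted over 6 list measures 0.0115). Without clone 17 the adjusted exact p was 0.0586. Against CRb1 clones 15, 16, 22, 23 and 24 alone, the log10 difference was 0.209, close to the 0.210 over all CRb1 lists, with an adjusted exact p of 0.131.

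The CRb3 lists held 98085 peaks in clone 17, 129000 in clone 18, 136322 in clone 19 and 102715 in clone 20. The CRb1 lists held from 11114 (clone 11) through a median of 78709.5 to 122638 (clone 16). Clones 18 and 19 thus lay above every CRb1 list, while clones 17 and 20 lay inside the CRb1 range. The log10 difference of 0.208 had an adjusted exact permutation p of 0.167. Without clone 11, the shortest list, the log10 difference was 0.161 and the adjusted exact p 0.00952. Covered length is the peak number times the mean peak width, so it is not a separate trait of a list. The covered length was 10.8 ± 1.62 Mb (SD, n = 4) in CRb3 and 7.56 ± 2.39 Mb (SD, n = 18) in CRb1, with an exact p of 0.0202 and an adjusted exact p of 0.0607. That adjusted exact p was 0.0168 without clone 11, 0.0226 without clone 12 and 0.0160 without clone 16, and it was 0.217 without clone 18 and 0.227 without clone 19.

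The peak at position 10000 of each list, the last one kept after every list was cut to its 10000 highest peaks, held 604, 349, 403 and 256 tags in clones 17, 18, 19 and 20. It held from 16 through a median of 234.5 to 414 tags in the CRb1 lists, with an adjusted exact permutation p of 0.167 for the log10 difference, and 0.0168 without clone 11. A tag is 1 step of the first score. Mean peak width was 93.0 ± 2.00 bp (SD, n = 4) in CRb3 and 99.0 ± 9.99 bp (SD, n = 18) in CRb1 (adjusted exact p = 0.289). It lay very close to an even whole number of bp in every list. Width may thus be a setting of each list rather than a trait of its regions, and the sources do not say. A neighbouring peak lay within 500 bp of 19.9 ± 1.78% (SD, n = 4) of the cut CRb3 peaks and of 19.8 ± 4.06% (SD, n = 18) of the cut CRb1 peaks (adjusted exact p = 0.977).

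**Figure D1:**
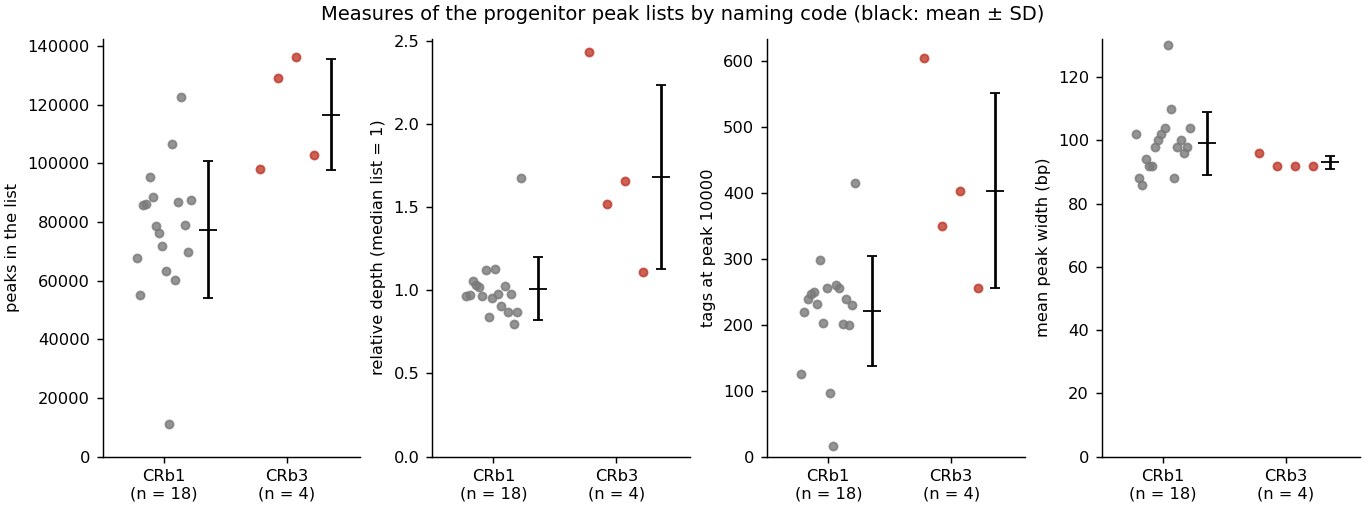
Each point is 1 progenitor list, grouped by naming code, and the black bar gives the mean ± SD. From left to right the vertical axes show the number of peaks, the relative depth, the tags at peak 10000 and the mean peak width in bp. The 4 CRb3 lists lie at relative depths from 1.11 to 2.43, and 1 CRb1 list, clone 24, reaches 1.68.

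The cut lists shared most of their peaks whatever their code. The Jaccard index, the number of regions 2 lists share divided by the number either holds, averaged 0.767 ± 0.0531 over the 6 pairs of CRb3 lists, 0.724 ± 0.0970 over the 153 pairs of CRb1 lists and 0.739 ± 0.0738 over the 72 pairs of 1 list of each code (SD over pairs, which share lists). The pairs within CRb1 spread more widely than the gap between these means. The mean across codes minus the mean within CRb1 was 0.0149 (two-sided exact permutation test, p = 0.691). This difference was -0.0110 with 20000 peaks per list (exact p = 0.565) and -0.140 when peaks were ranked by the second score, whose meaning is not given (exact p = 0.00123).

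The CRb1 lists were not all at the same distance from CRb3. Clone 16 had a mean Jaccard index of 0.683 to the CRb3 lists and 0.624 to the other CRb1 lists, and clone 15 had 0.792 and 0.745. These were the largest gaps in favour of CRb3 among the 18 CRb1 lists, of which 14 had a positive gap. Within CRb3, clone 17 was nearer to CRb1 (0.745) than to the other CRb3 lists (0.728), while clones 18, 19 and 20 had the higher value to CRb3. The correlation of ranks over regions present in all 22 lists ordered the CRb1 lists in the same way at the top, with a gap in mean r of 0.0755 for clone 16, 0.0469 for clone 15 and 0.0326 for clone 12. The gap was positive in 17 of the 18 CRb1 lists, with a median of 0.0238. Clone 11 had a low mean r to both codes (0.580 to CRb1, 0.579 to CRb3) and enters only the CRb1 mean of other lists. A positive gap alone therefore does not set a list apart. These values are descriptions over regions that the lists share, and clones 15 and 16 were singled out after the values were seen.

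**Figure D2:**
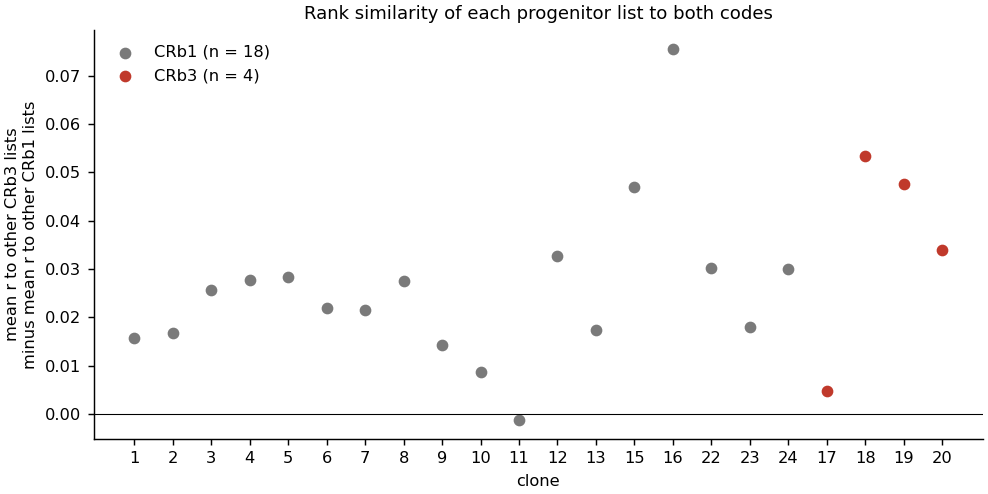
For each clone on the horizontal axis, the vertical axis gives the mean correlation r of its ranks with the other CRb3 lists minus the mean r with the other CRb1 lists, grey for CRb1 and red for CRb3. The CRb1 clones 16 (0.0755) and 15 (0.0469) lie beside the CRb3 clones 18 (0.0533) and 19 (0.0476), and CRb3 clone 17 lies at 0.00466. Of the 18 CRb1 lists, 17 have a positive value.

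No single region separated the codes by its presence among the 10000 highest peaks. Merging the 22 cut lists gave 17664 regions. Every list held 5005 of them, and 4978 were tested because at least 4 lists held and at least 4 lacked them. Of these 4978 regions, 0 passed (0%; two-sided Fisher's exact test with Benjamini-Hochberg adjustment, smallest adjusted p = 0.993), and 154 had an unadjusted p below 0.05, 94 of them more often present in CRb3. The smallest possible p was 0.000137, for a region held by all lists of one code and by none of the other, and 14 regions at that p would have been needed for these to pass. There was no such region, and the smallest p observed was 0.00205.

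The 2 regions with the smallest p were ones that the CRb3 lists lacked. Most of the 154 regions with an unadjusted p below 0.05 went the other way. Positions chr12:8778030-8778224 and chr4:39060342-39060485 were among the 10000 highest peaks of 0 of 4 CRb3 and 16 of 18 CRb1 lists (Fisher's exact p = 0.00205 each, adjusted by Benjamini-Hochberg 0.993). In the other direction, chr10:123575705-123575805 was held by 4 of 4 CRb3 and 3 of 18 CRb1 lists (Fisher's exact p = 0.00478, adjusted by Benjamini-Hochberg 0.993). These positions were named after their values were seen, because none passed. With peaks ranked by the second score, 55 of 14297 regions passed, 51 of them less often present in CRb3.

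In the lists as deposited, with their unequal lengths, 64 of 218443 merged regions were peaks in all 4 CRb3 lists and in no CRb1 list, and 0 were peaks in all CRb1 lists and no CRb3 list. The CRb3 lists were also the longer and deeper ones, and the part of that in the count was not tested. The 64 and the 0 cannot be set against each other. The 0 required a peak in all 18 CRb1 lists, among them clone 11 with 11114 peaks, and in none of the 4 CRb3 lists. It therefore had little room to be higher. The 64 required a peak in only 4 lists, each with at least 98085 peaks. Most of the 64 were small peaks, with a median of 14 tags. The highest of them, chr7:108531191-108531341, held 112 to 202 tags in the 4 CRb3 lists with a median of 138.5, and the next, chr10:60664414-60664522, held 24 to 106. Fisher's exact test with Benjamini-Hochberg adjustment passed 0 of 77235 regions of the deposited lists, with a smallest adjusted p of 0.153.

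The share of the 10000 peaks on each chromosome did not separate the codes: 0 of 20 chromosomes passed, with a smallest adjusted exact permutation p of 0.854. The smallest unadjusted exact p, 0.0876, was that of chromosome 6, which held 4.63 ± 0.118% (SD, n = 4) of the CRb3 peaks and 4.47 ± 0.169% (SD, n = 18) of the CRb1 peaks. With peaks ranked by the second score, 5 chromosomes passed, namely 6, 7, 8, 12 and 13.

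Ranks were then compared over the regions that every list holds. In each list, the 9144 regions that were peaks in all 22 deposited lists were ranked by the first score. The ranks were turned into normal scores and tested with limma. The difference (CRb3 minus CRb1) is in SDs of that scale, and the percentile of a region is its rank among the 9144, with 100 the highest. Of the 9144 regions, 8 passed at an adjusted p of 0.05 (0.0875% lower in CRb3, limma with Benjamini-Hochberg adjustment), all lower in CRb3, and 334 had an unadjusted p below 0.05, 217 of them lower. The 8 regions lie on 7 chromosomes and had a median width of 201.5 bp, against 189 bp over all 9144.

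**Figure D3:**
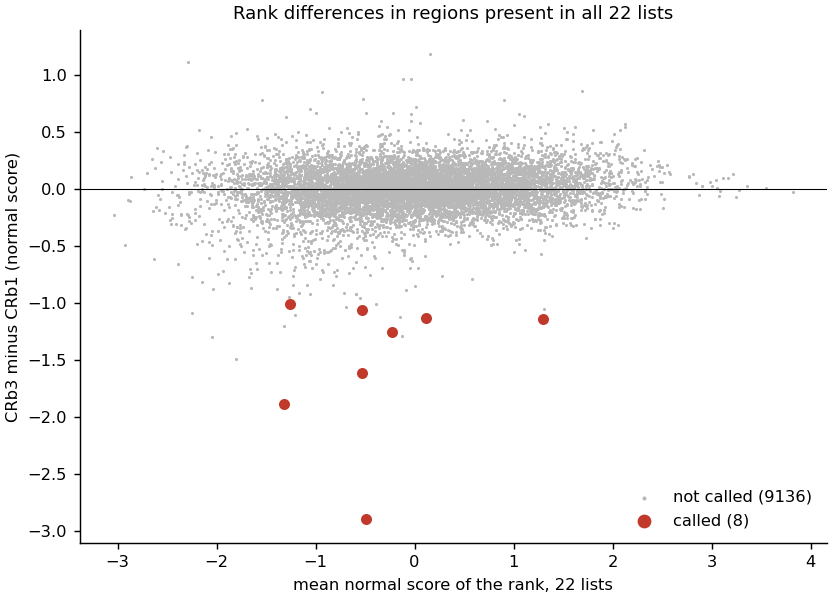
Each point is 1 of the 9144 regions, with its mean normal score over the 22 lists on the horizontal axis and the difference CRb3 minus CRb1 in normal scores on the vertical axis. The 8 regions that passed, in red, lie between -1.01 and -2.90, and most other regions lie around 0.

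The largest difference was at chr17:63232278-63232524. This region held 35, 29, 40 and 52 tags in CRb3 clones 17, 18, 19 and 20, which put it at percentiles 0.159, 0.137, 0.104 and 0.771, among the weakest of the shared peaks in each of the 4 lists. In the CRb1 lists it held from 15 through a median of 564 to 1263 tags, at percentiles from 0.262 through 62.2 to 93.3. CRb1 clones 15 and 16 lay with the CRb3 lists, at 34 and 28 tags and percentiles 0.487 and 0.262, and clone 11, the shortest list, held 15 tags at percentile 4.21. The difference was -2.90 (SE 0.53, limma adjusted p = 0.0164). The other 15 CRb1 lists lay at percentile 45.7 or higher.

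At chr5:105565860-105566195 the same CRb1 clones lay low. The region held 73, 22, 39 and 40 tags in clones 17, 18, 19 and 20, all below percentile 0.766, and from 26 through 233.5 to 339 tags in the CRb1 lists, at a median percentile of 21.7. Clones 15 and 16 again lay among the CRb3 lists, with 32 and 35 tags at percentiles 0.421 and 0.410. The difference was -1.88 (SE 0.31, limma adjusted p = 0.00574). A second region on that chromosome, chr5:105772944-105773096, was at percentiles 7.86, 4.85, 8.04 and 12.7 in the 4 CRb3 lists and at a median of 37.3 in CRb1, where clone 15 lay at 7.80 and clone 16 at 27.5. Its difference was -1.06 (SE 0.21, limma adjusted p = 0.0434).

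The region chr12:8778030-8778224, which no CRb3 list held among its 10000 highest peaks, had 353, 67, 152 and 115 tags in clones 17, 18, 19 and 20. The CRb1 lists had from 25 through 386 to 806. The percentiles were 0.880 to 9.16 in CRb3 and 3.61 to 73.3 in CRb1, with clone 16 as the only CRb1 list inside the CRb3 range. The difference was -1.61 (SE 0.26, limma adjusted p = 0.00574).

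Only at chr8:75877434-75877591 did the groups not overlap in percentile. This was a strong peak in both codes, at percentiles 51.1, 69.2, 70.7 and 65.2 in clones 17 to 20 and from 74.2 (clone 15) through 92.6 to 98.6 in the CRb1 lists. Its tags, 1139, 781, 918 and 572 against a CRb1 median of 986.5, did overlap. Tags are not corrected for the depth of a list. The difference was -1.14 (SE 0.18, limma adjusted p = 0.00574). Over all 9144 regions the percentiles did not overlap at 4 regions lower and 1 region higher in CRb3.

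The codes also overlapped at the remaining 3 regions, most of all on chromosome 16. At chr16:31429894-31430101, clones 17, 18 and 19 lay at percentiles 7.08, 6.73 and 4.16 and clone 20 at 38.5, inside the CRb1 range of 23.99 to 75.4, so that CRb1 clones 7, 16, 22 and 24 lay below clone 20 (difference -1.25, limma adjusted p = 0.0103). At chr6:50406221-50406391, the CRb3 percentiles ran from 8.42 in clone 20 to 43.1 in clone 18, and the CRb1 percentiles from 26.6 in clone 16 to 78.0 (difference -1.13, limma adjusted p = 0.0137). At chr10:119883366-119883616, the CRb3 percentiles ran from 1.05 to 4.92 and those of CRb1 from 1.89 in clone 16 to 36.9 in clone 11 (difference -1.01, limma adjusted p = 0.0260). The first region outside the threshold, chr12:12183446-12183661, was at 4.03 to 11.1 in CRb3 and at a median of 24.5 in CRb1 (difference -0.84, limma adjusted p = 0.0632).

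**Figure D4:**
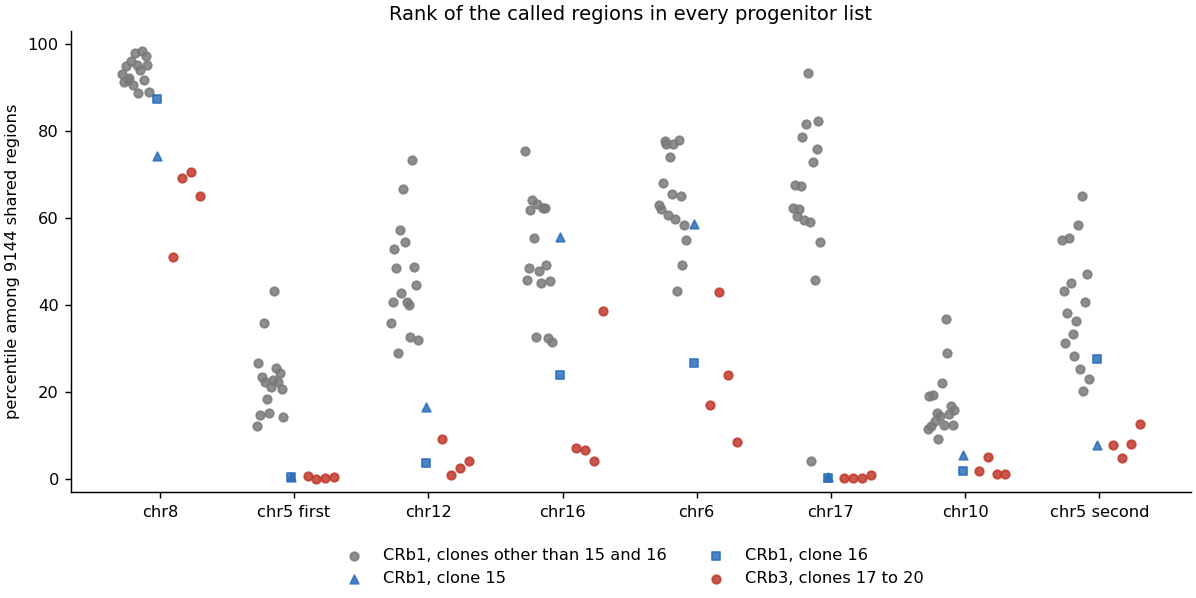
Each column is 1 of the 8 regions that passed, in order of p, with the first and second chromosome 5 region starting at 105565860 and 105772944. The vertical axis is the percentile of the region among the 9144 shared regions of a list, and each point is a list, with CRb3 in red and the CRb1 clones 15 (triangle) and 16 (square) in blue. Clone 16 or clone 15 is the lowest CRb1 list at each of the 8 regions.

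The number of calls changed when single lists were left out. Without clone 19 the number passing was 0 of 9141 (limma, smallest adjusted p = 0.0596), while the differences at the 8 regions stayed between -0.93 and -2.82, with -2.82 in place of -2.90 at the chromosome 17 region. The number passing was 2 without clone 17, 3 without clone 18 and 5 without clone 20. Without CRb1 clone 11, which limits the shared regions, 31479 regions could be ranked and 42 passed, all lower in CRb3. With the log10 relative depth as a covariate, 0 of 9144 passed (smallest limma adjusted p = 0.551, with 508 at an unadjusted p below 0.05). The differences themselves stayed close at 5 of the 8 regions: -2.75 at the chromosome 17 region, -2.05 at chr5:105565860, -1.66 at chr12:8778030, -1.22 at chr6:50406221 and -1.03 at chr10:119883366. They were smaller at chr8:75877434 (-0.80), chr16:31429894 (-0.77) and chr5:105772944 (-0.93). Among regions in at least 20 of the 22 lists, with a missing list given no value, 47 of 39807 passed, but only 1 of the 8 (chr5:105565860, limma adjusted p = 0.0370) was among them. The differences of the 8 then lay between -0.53 and -2.29. Against CRb1 clones 15, 16, 22, 23 and 24 alone, 0 of 48223 passed (smallest limma adjusted p = 0.934, with 1472 at an unadjusted p below 0.05). The differences at the 8 regions then lay between -0.38 and -1.55. Here, as with the 39807 regions, ranks ran over more regions than the 9144, so these differences are on another scale. The part that the choice of CRb1 lists had in them was not tested.

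Depth moved with the code, and its part in the rank differences was not tested beyond the covariate. Of the CRb1 lists, the deepest was clone 24, with a relative depth of 1.68 against 1.66 in clone 19. At the chromosome 17 region clone 24 held 904 tags at percentile 54.5, and clone 19 held 40 tags at percentile 0.104. At the chromosome 12 region starting at 8778030 the values were 579 tags at percentile 31.9 in clone 24 and 152 tags at percentile 2.53 in clone 19. Clones 15 and 16, with relative depths of 0.870 and 0.979, were among the lowest lists at the chromosome 17 region. At chr16:31429894-31430101, clone 24 lay at percentile 31.6, below CRb3 clone 20 at 38.5, and clone 15 lay at 55.7. These regions and lists were picked after their values were seen, and single lists cannot separate depth from the code.

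A wider ranking took in the 50361 regions that were peaks in at least 18 of the 22 lists, with a list that lacked the region ranked lowest in it. This test was added after the 8 calls and the values of single regions had been seen. Regions tied at the bottom of a list share 1 mean rank, which lies at percentile 40.4 in clone 11 because that list lacks most of them. The filter was not even between the codes. The 18 CRb1 lists alone can meet it, so a region that all 4 CRb3 lists lack could enter. A region held by all 4 CRb3 lists and by few CRb1 lists could not. The filter thus leaves more room for calls lower in CRb3, and its part in their direction was not tested. In the wider ranking 97 regions passed, 96 of them lower in CRb3 (0.191% lower in CRb3, limma with Benjamini-Hochberg adjustment). The 96 lower regions had a median difference of -1.42, and 5 of the 8 earlier calls were among them. For CRb3, the mean percentile of the 4 lists was taken at each of the 96, and its median over the regions was 8.28. For CRb1, the median percentile of the 18 lists was taken at each region, and its median over the regions was 46.5. A mean of 4 lists can be raised by 1 high list, so these percentiles are not like measures. Over all 50361 regions the median difference was 0.02. The 1 region higher in CRb3, chr18:61792079-61792263, was at percentiles 47.9 to 61.4 in CRb3 and 4.69 to 50.6 in CRb1 (difference 0.97, limma adjusted p = 0.0443). The count ran from 24 without clone 18 and 31 without clone 19 to 235 without clone 20, 236 without clone 15 and 324 without clone 16, and was 153 without clone 17.

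The region with the smallest p of the wider ranking, chr6:144161113-144161291, was at percentiles 1.59 to 3.91 in the CRb3 lists and from 9.85 through 36.4 to 42.8 in the CRb1 lists (difference -1.51, SE 0.16, limma adjusted p = 0.000108). The percentiles of the groups did not overlap there, but clone 11 lacked the peak and stood at 40.4 only through its tied rank. On chromosome 9, chr9:98318432-98318589 was at 0.471 to 1.39 in CRb3 and at 5.27 to 43.8 in CRb1 (difference -1.64, SE 0.21, limma adjusted p = 0.00119). CRb3 clones 17 and 20 lacked this peak. CRb1 clone 11 lacked it too and stood at 40.4 through its tied rank, so the percentiles do not separate the groups by presence. On chromosome 13, chr13:114172506-114172722 was at 2.91 to 11.2 in CRb3 and at 16.5 to 69.8 in CRb1 (difference -1.42, SE 0.21, limma adjusted p = 0.00450).

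Some of the 97 regions lay close together. A run was set, after the calls were seen, as at least 3 passing regions with gaps of at most 200 kb, and 4 runs met it. The run at chr17:63162887-63232524, 69.6 kb long, held 5 tested regions, of which 4 passed, and all 5 were lower in CRb3 with a median difference of -2.20. Its end is the chromosome 17 region of the narrower ranking. The strongest difference of the run, -2.54, was at chr17:63162887-63163110. CRb3 clones 17, 18 and 19 lacked this peak and stood at tied ranks, at percentiles 0.969, 0.548 and 0.156. CRb1 clone 11 lacked it too, but its tied rank lay at 40.4. The 15 tested regions within 500 kb on either side of the run had a median difference of -0.31. That none of them passed is in part fixed by the gap rule, which leaves no passing region within 200 kb of a run, and the same holds for the other runs. The median percentile over the run was 0.969 to 9.00 in the CRb3 lists. Clones 17, 18 and 19 lacked 3, 2 and 1 of the 5 regions, and the 0.969 of clone 17 is its tied rank. Among the CRb1 lists the median percentile ran from 8.11 in clone 16 and 26.02 in clone 15 through a median of 68.3 to 77.4. It was 57.4 in clone 24. Clone 11 lacked 4 of the 5 regions, and its 40.4 came from its tied rank.

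The run at chr5:105565860-105720148, 154 kb long, held 6 tested regions, of which 5 passed, and all 6 were lower in CRb3 with a median difference of -1.61. The flanking 41 tested regions had a median difference of -0.03. The median percentile over this run was 2.44 to 23.4 in the CRb3 lists and 9.23 in clone 16, 12.4 in clone 15 and 55.1 in clone 24. The CRb1 median was 65.6, and clones 15 and 16 were the only CRb1 lists inside the CRb3 range. Clone 11 lacked 5 of the 6 regions, and its 40.4 there came from its tied rank.

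The other runs were less dense. At chr9:98318432-98390247, 3 of 5 tested regions passed and the median difference was -0.94, with median percentiles of 2.95 to 27.1 in CRb3. The CRb1 median was 49.0, and CRb1 clones 16 (12.5), 15 (13.5) and 1 (23.7) lay inside the CRb3 range. Clone 11 lacked all 5 regions and stood at 40.4 through its tied rank. At chr5:147396326-147583871, 3 of 14 tested regions passed, 11 were lower in CRb3 and the median difference was -0.54. There the codes overlapped widely, with median percentiles of 8.73 to 55.2 in CRb3, where clone 20 was the highest, and 22.3 to 65.4 in CRb1 with a median of 47.7. The lowest CRb1 lists were clones 16 (22.3) and 24 (29.99), and clone 15 lay at 50.4. The regions within 500 kb of these runs had median differences of -0.09 among 14 on chromosome 9 and -0.03 among 35 on chromosome 5.

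**Figure D5:**
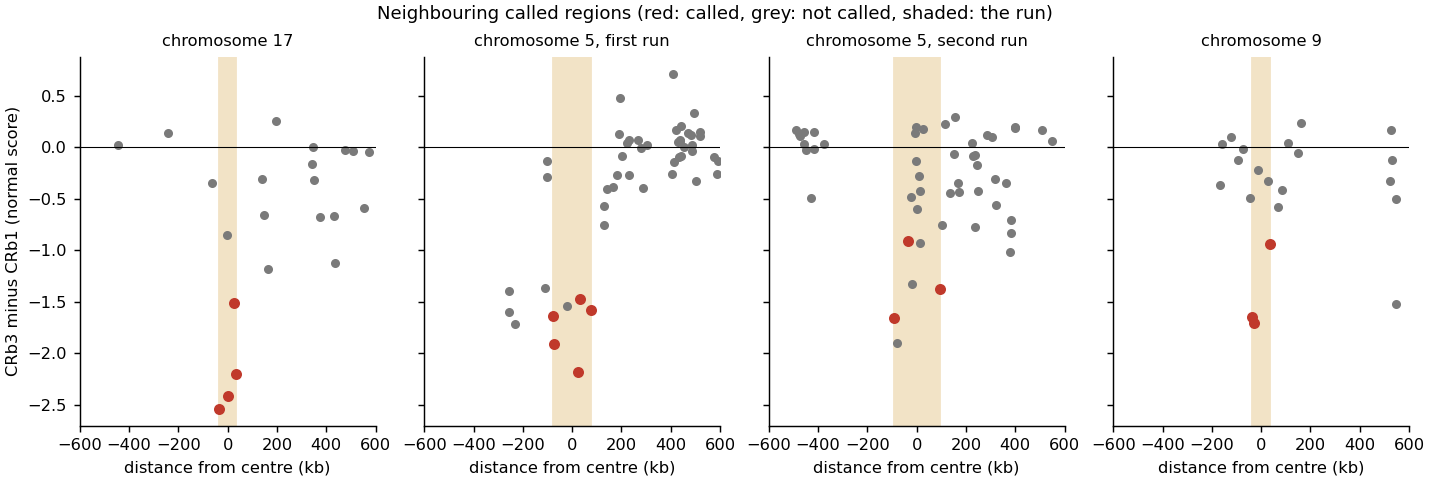
Each panel shows the tested regions around 1 run, by their distance from its centre in kb, against the difference CRb3 minus CRb1 in normal scores. Regions that passed are red, others grey, and the run is shaded. In the chromosome 17 and the first chromosome 5 run the regions inside lie below -0.8, and the flanking regions have medians of -0.31 and -0.03.

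Of the 96 regions lower in CRb3, clone 16 lay at or below the CRb3 mean at 13 and clone 15 at 7, and each of the other 16 CRb1 lists at 0. The 0 of clone 11 was largely fixed in advance. That list lacked most of the 96 regions, and its tied rank at percentile 40.4 put it above the CRb3 mean there. Over all 50361 regions the same share was 45.1% to 49.5% in every CRb1 list. The 96 were chosen by the same fit, which favours regions where CRb1 lists are high, so these counts describe the 2 lists and test nothing.

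The monocyte lists of the same clones are another readout of these regions, and they were not used in any fit above. The monocyte lists of clones 17, 18, 19 and 20 held 1, 1, 0 and 4 of the 8 regions as peaks. Over all 9144 regions these lists held 42.4%, 66.4%, 8.90% and 46.5%. The monocyte lists of clones 1 to 13 held from 5 to 8 of the 8, and 88.6% to 96.9% of all 9144. The later CRb1 clones 15, 16, 22, 23 and 24, whose monocyte lists are also short or hold few shared regions, held 0, 1, 0, 1 and 0 of the 8, beside 39.4%, 41.0%, 1.66%, 42.7% and 28.9% of all 9144. Low counts in monocytes were thus found in later clones of both codes.

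Clone 20 has the longest monocyte list of these clones, with 38786 peaks, and it held the chromosome 8, 12, 16 and 17 regions. Its chromosome 17 peak had 19 tags and was number 3883 in that list. The monocyte lists of clones 1 to 13 all held that region. In the clone 18 monocyte list, with 10966 peaks, the only one of the 8 was the chromosome 8 region. Cut to 10000 peaks, the monocyte lists of clones 18 and 20 held 1 and 4 of the 96 regions lower in CRb3 (1.04% and 4.17%), beside 16.6% and 7.55% of all 50361 regions. Those of clones 1 to 13 held 3.12% to 9.38% of the 96 and 19.1% to 19.6% of all 50361. Of the later CRb1 clones, only clone 16 had a monocyte list long enough to cut. It held 0 of the 96 (0%), beside 8.98% of all 50361.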

How the data were processed

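ATAC-seq peak lists of 22 progenitor libraries were compared, 4 of code CRb3 and 18 of CRb1. The authors deposited each list in mm9 coordinates with 2 score columns and no header. The submitters' processing notes name BWA, without a version. The sources used here do not give the peak caller, the read filters or the scaling of either score. The first deposited score lies on an even ladder in each list: of values below 40 steps, 95.4% to 100% per list were whole to within 0.1 step. A step was therefore read as a tag, and its inverse as relative depth, which assumes a common scaled total. Total depth is unknown, so no counting interval is given. Scores ranked peaks within a list. Between lists, only the tags and the relative depth read from the ladder use their values.

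Lists were cut to the 10000 peaks of highest first score, and peaks overlapping by at least 1 bp were merged. Presence was tested where at least 4 lists held and at least 4 lacked a region. Ranks of regions present in all 22 lists were tested with limma 3.58.1 in R 4.3.3, and the other values with exact permutation or Fisher's exact tests in scipy 1.17.1, two-sided, with Benjamini-Hochberg adjustment at 0.05. The limma and Fisher's exact tests were tried on simulated data with independent noise in each region. Those data held no depth difference between codes and no tied ranks of missing peaks. Members, lists and tests were chosen with earlier results of these data known. Of the regions, all that passed the main rank test are named, and regions from the wider ranking were named after their values were seen. Promoter shares, GC content, motifs and marker genes were not examined, because no mm9 reference was used here. Alternatives covered list length, merging, the second score, the regions ranked, a depth covariate, the later CRb1 clones alone and each list left out.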

Additional observations from a re-analysis of the deposited data

Results flagged for a closer look

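Among the 4 CRb3 lists, 4 of 15 sets of values checked had 1 list standing apart, where the gap of that list to its nearest neighbour, divided by the range of the 4, was above Dixon's critical value for 4 samples. Chance flags about 1 in 20 such sets, and the sets share lists and are not independent. In mean peak width, clone 17 stood apart, with a ratio of 0.999875: its peaks averaged 96.0 bp and those of clones 18, 19 and 20 averaged 92.0 bp each. Mean widths lay very close to even whole numbers in all lists. With clones 18, 19 and 20 at the same width, any other width in clone 17 gives a ratio near its maximum. In the median second score of the 10000 highest peaks, clone 17 stood apart with a ratio of 0.846, at 0.67 against 0.78 to 0.80. In the percentile at chr16:31429894-31430101, clone 20 stood apart with a ratio of 0.915, at 38.5 against 4.16 to 7.08. In the percentile at chr17:63232278-63232524, clone 20 stood apart with a ratio of 0.918, at 0.771 against 0.104 to 0.159, a gap that is small beside the CRb1 median of 62.2.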

How the results depend on the processing

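No paired analysis was possible because no clone number occurs in both codes. The mean Jaccard difference changed sign with 20000 peaks (-0.0110) and with the second score (-0.140). The second score also gave 55 regions by presence in place of 0, 5 chromosomes in place of 0, 929 regions by rank in place of 8 (386 higher and 543 lower in CRb3), and turned the differences at chr8:75877434 to 0.41 and at chr6:50406221 to 0.10, neither past the threshold. The cause was not tested. The rank count was 1 with percentiles, 0 with the depth covariate (differences of -0.77 to -2.75 at the 8 regions), 0 with the later CRb1 clones alone, 47 with regions in at least 20 lists (where 7 of the 8 named regions no longer passed) and 97 in the wider ranking. The adjusted exact p of the log10 relative depth difference (0.209) missed the threshold with the later CRb1 clones alone, where fewer lists enter. With each list left out in turn, the rank count ran from 0 to 42, that of the wider ranking from 24 to 324, the presence and chromosome counts stayed at 0, and the Jaccard difference ran from 0.00514 to 0.0276. The log10 differences ran from 0.151 to 0.265 for relative depth, 0.161 to 0.232 for peak number and 0.234 to 0.358 for tags at peak 10000. The covered length difference ran from 2.68 to 3.72 Mb and the neighbour share from -0.587 to 0.620 percentage points, changing sign in 9 of the settings. With 4 CRb3 lists, the smallest p of the presence test was 0.000137 per region, which limits what it can pass. The median second score, a measure added later, was 0.7625 in CRb3 and 0.768 in CRb1 (exact permutation p = 0.899).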
